A study of Danio rerio with 16 samples.

Results

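Endothelial and endocardial cells of the adult zebrafish ventricle were compared between cryoinjured hearts at 7 days post injury (7 dpi) and uninjured hearts. Cryoinjury is local damage by cold. The comparison used 7 of the 16 libraries of the study: 3 of mCherry-positive cells from uninjured hearts (pools 2, 3 and 4) and 4 of mCherry-positive cells at 7 dpi (pools 5, 6, 7 and 9). They were chosen by the sort, the treatment and the pool number on their labels, and not by a measured value. All fish of both groups were adults of 3 to 9 months that carried kdrl:mCherry, a reporter driven by an endothelial receptor gene, together with postnb:citrine, a reporter from a gene of the matrix protein periostin. A library held cells of the ventricular apex from 3 to 5 hearts, freed with trypsin, sorted by fluorescence and amplified from 0.2 to 0.6 ng of total RNA. No pool number occurs in both groups, so the effect of injury and that of the pools cannot be told apart. The other 9 libraries, all at 7 dpi, were 3 of citrine-positive cells and 6 of cells with neither reporter, called double-negative here, which are a mixture.

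The endothelium lines blood vessels, and its specialised sheet inside the heart, the endocardium, lines the chambers. In the zebrafish, which regrows heart muscle after injury, both are known to change state early at the wound, where endocardial cells secrete signals and matrix and new vessels enter the damaged tissue. Injury also brings in macrophages and activates epicardial cells and fibroblasts, so genes of those cells were followed beside the endothelial ones. Roles stated here are those known for the mammalian gene of the same name unless zebrafish is mentioned.

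Levels are TPM, transcripts of a gene per 1000000 transcripts of the library. Read depth is unknown, so no counting intervals accompany them. Uninjured values are listed in the order of pools 2, 3 and 4, and injured values in the order of pools 5, 6, 7 and 9. Between 12869 and 13735 gene IDs reached 1 TPM in uninjured libraries and between 12111 and 15738 at 7 dpi. The 20 most abundant IDs held from 29.4% to 64.3% of the TPM over the 7 libraries. Pool 9 stood apart. There si:dkeyp-3b12.11 had 129844 TPM, against at most 6278.5 TPM in the other mCherry-positive libraries, and its neighbour in name si:dkeyp-3b12.8 had 126711 TPM, against 0. Pool 9 forms a second set of libraries with pool 10, which has no mCherry-positive library, and results that rest on it are given with and without it.

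The sort was checked against defining markers. The receptor gene kdrl had 467, 410 and 283 TPM uninjured and 266, 248, 159 and 183 TPM at 7 dpi, against at most 1.73 TPM in citrine-positive and 57.0 TPM in double-negative libraries. The junction gene cdh5 (VE-cadherin) had 503, 469 and 274 TPM, then 422, 401, 214 and 294 TPM. TIE1, an endothelial receptor kinase, lay between 50.6 and 89.7 TPM in all 7 libraries, and FLI1, an endothelial transcription factor, between 217 and 509 TPM. Each of these 4 genes was higher in all 7 mCherry-positive libraries than in any library of the other sorts. TCF21, a marker of epicardium and fibroblasts, was listed at 0 in 6 of the 7 and at 0.53 TPM in pool 7. The list of epicardial and fibroblast genes that includes it was not absent. Its levels summed to 3534 to 6419 TPM uninjured and to 3617 to 8258 TPM at 7 dpi. Double-negative libraries reached 2318 to 5152 TPM for the same list, and periostin-reporter cells 5335 to 8542 TPM. The part of epicardial cells or fibroblasts in these sums was not tested. The marker pecam1 had no match among the gene names. The oxygen-binding muscle gene mb was abundant, with 12332, 11214 and 9674 TPM uninjured and 7679, 7025, 6531 and 3845 TPM at 7 dpi. Of 26 IDs of cardiomyocyte genes, 3 were listed at 0 in all 7 libraries: TNNI1, TNNT2 and smtnl1. The cardiomyocyte gene MYH7 had 3.11 to 49.5 TPM in the 7 libraries, against 61.5 to 400 TPM in double-negative ones. Whether the mb transcripts came from cardiomyocytes was not tested.

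Few genes changed beyond the spread between pools, and more of them rose than fell. Of 19039 gene IDs tested with limma, 132 passed an adjusted p (Benjamini-Hochberg) of 0.05 and are named called, which is 0.693% of those tested. Of these, 80 were higher at 7 dpi (0.42%) and 52 lower (0.273%), and 2189 IDs had an unadjusted p under 0.05. The 4 injured libraries lay wholly above or below the 3 uninjured ones in 131 of the 132, as in 6.92% of all tested IDs (2.89% above and 4.03% below). Of the higher IDs 10 were listed at 0 in all uninjured libraries, and of the lower IDs 3 were listed at 0 in all injured ones. Of the lower IDs 17 had no symbol and the same values in every library, so they are 1 measurement. With identical IDs counted once, 77 were called higher and 31 lower. The spread was estimated over all 16 libraries. Fitted on the 7 libraries alone, limma called 0 IDs, with 1306 at an unadjusted p under 0.05.

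The number and balance of calls moved with the libraries and the scaling. In the fits that left out 1 of the 7 libraries, between 83 and 205 IDs were called, and 51 of the 132 were called each time, 28 of them higher and 23 lower. Of those 23 lower IDs, 17 were the IDs with identical values, which are 1 measurement. Without uninjured pool 4 the balance turned to 56 higher and 77 lower. Scaling by the median of ratios gave 134 higher and 54 lower, and leaving the most abundant IDs out of the total gave 176 and 50. Within pools 2 to 8 there were 59 higher and 56 lower (0.31% and 0.294%), and 74 of the 132 were among them. The lower calls of each fit in this paragraph include the 17 identical IDs, as do the 74. A gene named below as called in every fit was called over all libraries and in all 7 fits without 1 library. For the others the highest adjusted p over those 7 fits is given, with the library left out. Without pool 9 the calls of CALCRL, ITGA4, MYLK, RND3, TGM2, THBS1, TRIM8 and krt18b ended, with adjusted p from 0.0501 to 0.0881.

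**Figure D1:**
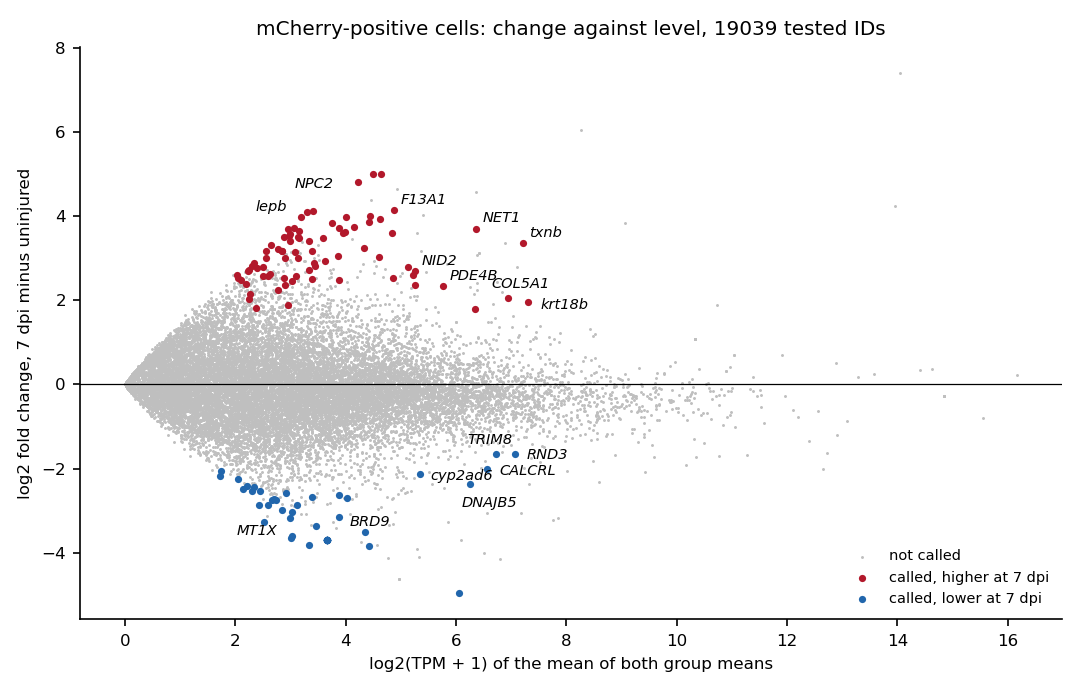
Each point is 1 of the 19039 tested gene IDs, with the level (log2 of the mean TPM of both groups + 1) on the x axis and the log2 fold change, 7 dpi minus uninjured, on the y axis. The 80 red points passed the test upward and the 52 blue points downward.

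Genes of secreted signals and their receptors were among the clearest rises. The gene of the hormone leptin b, lepb, which in zebrafish is known for its induction in injured fin and heart, was listed at 0 in all 3 uninjured libraries and had 28.7, 14.5, 14.5 and 7.50 TPM at 7 dpi (adjusted p = 0.000132 by limma, called in every fit). It was also detected in the other sorts at 7 dpi, from 5.61 to 12.2 TPM among citrine-positive libraries and from 8.13 to 13.8 TPM among double-negative ones. The leptin receptor gene lepr, named after its values were seen, had 27.7, 8.44 and 9.53 TPM uninjured and 8.52 to 11.3 TPM at 7 dpi and was not called (adjusted p = 0.767). The ligand was thus seen in each injured library and in none of the uninjured ones, while the receptor was listed in all 7. The gene crlf1a encodes a secreted factor that in mammals forms a cytokine with the product of CLCF1. It had 0.12, 3.53 and 0.07 TPM uninjured and 80.8, 48.1, 26.1 and 4.89 TPM at 7 dpi (log2 fold change 4.01 ± 0.88 SE, adjusted p = 0.0399). Its call ended in 5 of the 7 fits without 1 library, with adjusted p up to 0.138 without uninjured pool 2. Its partner clcf1 was listed at 0 in the uninjured libraries and had 67.6, 11.4, 3.35 and 0.37 TPM at 7 dpi, without passing the test (adjusted p = 0.129). Both genes were highest in pool 5 and lowest in pool 9.

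Receptor genes changed in both directions. The gene tnfrsf11a, for the TNF-family receptor RANK, had 2.80, 2.86 and 0.09 TPM uninjured and 54.1, 55.6, 27.3 and 18.9 TPM at 7 dpi (3.85 ± 0.70, adjusted p = 0.00963), and its call ended without uninjured pool 4 (adjusted p = 0.0557). The death receptor gene fas went from 0, 0.47 and 0 TPM to 16.8, 29.5, 10.51 and 5.67 TPM (3.65 ± 0.59, adjusted p = 0.00555) and was called in every fit. S1PR1, for a sphingosine-1-phosphate receptor that steadies endothelial junctions, went from 0.53, 3.50 and 0.28 TPM to 52.3, 27.0, 14.6 and 15.7 TPM (3.60 ± 0.53, adjusted p = 0.00325) and was also called in every fit. All 3 genes had no overlap between groups, as had 131 of the 132 called IDs and 6.92% of all tested IDs. CALCRL, for the receptor of adrenomedullin, a peptide that acts on endothelium, fell from 136, 217 and 101 TPM to 49.8, 27.9, 44.3 and 23.9 TPM (-2.01 ± 0.46, adjusted p = 0.0478). Its groups did not overlap either, but its call ended in each of the 7 fits without 1 library (adjusted p from 0.0505 to 0.186). The gene tgfbr2l, named for its likeness to a TGF-beta receptor, fell from 21.3, 16.8 and 11.7 TPM to 1.15, 0, 2.13 and 6.60 TPM (-2.68 ± 0.56, adjusted p = 0.0259). That call ended in 4 fits, with adjusted p up to 0.105 without uninjured pool 2.

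Further signalling genes rose. PDE4B, for an enzyme that breaks down cyclic AMP, had 14.4, 17.5 and 15.7 TPM uninjured and 117, 125, 73.9 and 46.5 TPM at 7 dpi (2.34 ± 0.34, adjusted p = 0.00325), and was called in every fit. TNFAIP6, for a secreted protein that binds hyaluronan, had at most 3.29 TPM uninjured and 18.4, 11.3, 16.8 and 11.03 TPM at 7 dpi (3.00 ± 0.54, adjusted p = 0.00858, and 0.0643 without uninjured pool 2). DKK3, for a secreted protein of the Dickkopf family, had at most 0.90 TPM uninjured and 5.90 to 15.3 TPM at 7 dpi (ENSDARG00000070683, 3.00 ± 0.49, adjusted p = 0.00583) and was called in every fit. Groups did not overlap for these genes, as in 131 of the 132 called IDs and 6.92% of all tested IDs. The chemokine gene ccl35.1 had 21.1, 5.54 and 1.75 TPM, then 80.2, 54.2, 26.1 and 25.9 TPM (2.53 ± 0.56, adjusted p = 0.0399). GPR84, for a fatty acid receptor known on myeloid cells, had 2.23, 2.46 and 0.18 TPM, then 17.4, 15.5, 8.28 and 9.25 TPM (2.46 ± 0.55, adjusted p = 0.0404). The calls of ccl35.1 and GPR84 each ended in 4 fits, most without uninjured pool 4 (adjusted p = 0.155 and 0.151).

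Pathway lists for genes of these kinds had few calls, where 0.42% of all tested IDs were called higher and 0.273% lower. Some genes called above, such as lepb, fas and tgfbr2l, are not on the lists of this paragraph. Of 55 tested genes of cytokines and JAK-STAT signalling 2 rose, crlf1a and tnfrsf11a, and the median log2 fold change was 0.11, against -0.06 over all tested IDs. Of 36 vasoactive and chemokine G protein receptors S1PR1 rose and CALCRL fell (median 0.02). Of 24 chemokine and complement genes ccl35.1 rose (median 0.23), and of 33 Wnt genes DKK3 rose (median 0.01). None of 47 genes of the TGF-beta and BMP pathway (median 0.12), 24 of the retinoic acid pathway (median -0.14) or 26 of the Notch pathway (median -0.03) was called in limma's fit. At an unadjusted p under 0.05 these 3 lists held 6 higher and 2 lower, 2 higher and 5 lower, and 0 genes, where 5.07% of all tested IDs were higher and 6.42% lower.

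**Figure D2:**
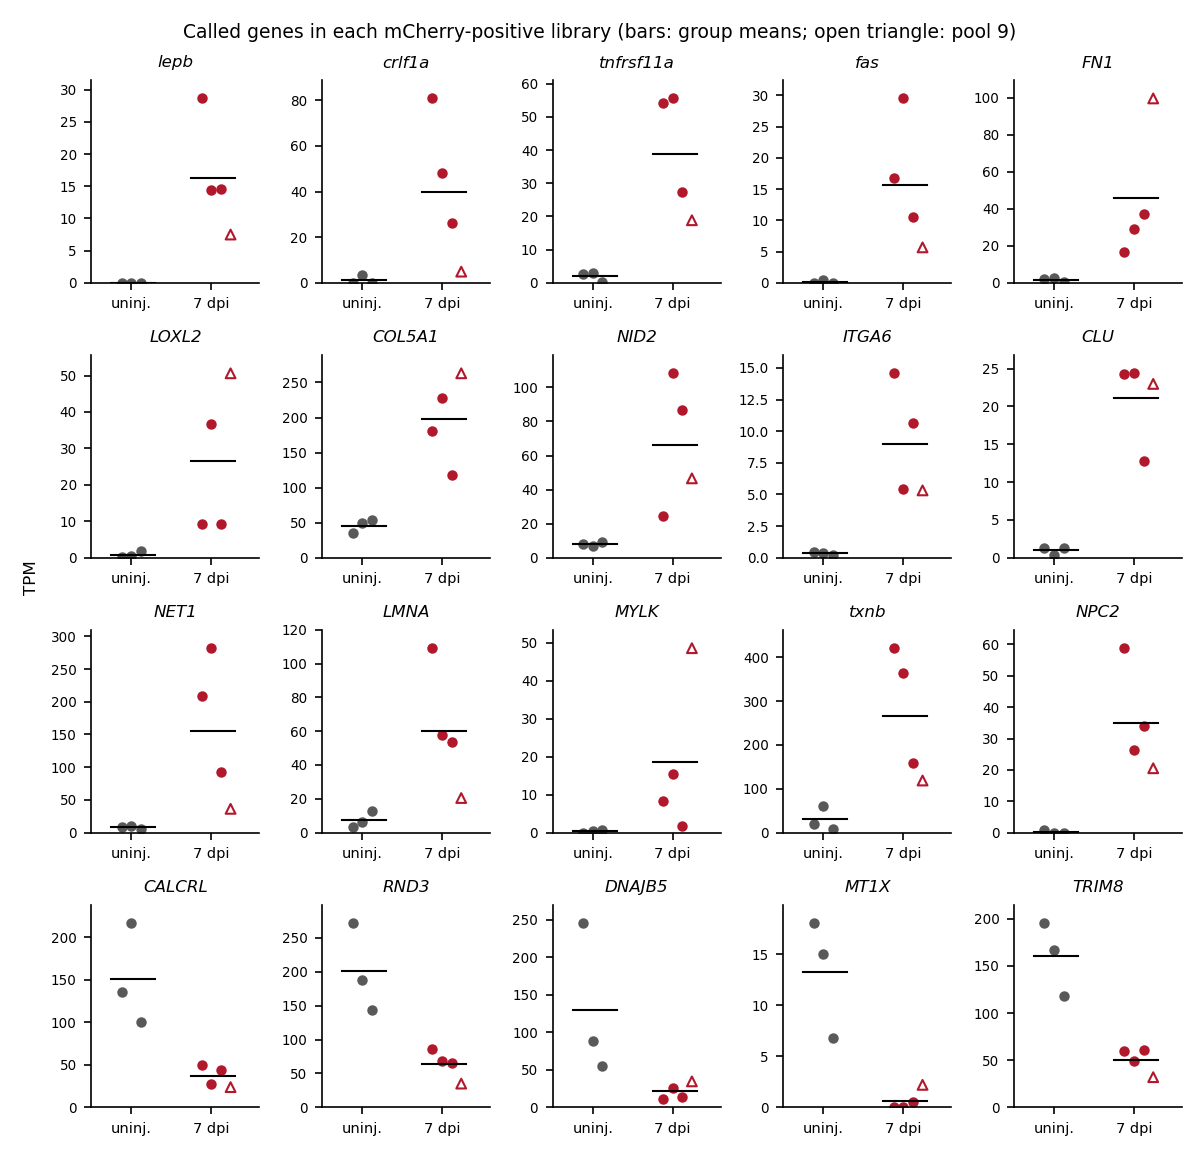
TPM of 20 called genes in each mCherry-positive library, on a linear axis from 0, with uninjured pools in grey, pools 5 to 7 at 7 dpi in red and pool 9 as an open triangle. Bars are group means. The groups do not overlap in any panel, as in 131 of the 132 called IDs and 6.92% of all tested IDs. Pool 9 is the highest injured library for FN1, LOXL2, COL5A1, MYLK, DNAJB5 and MT1X. It is the lowest for lepb, crlf1a, tnfrsf11a, fas, ITGA6, NET1, LMNA, txnb, NPC2, CALCRL, RND3 and TRIM8.

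Of the genes of extracellular matrix and its crosslinking, FN1, COL5A1, LOXL2, THBS1 and TGM2 rose, and most members of their lists were not called. FN1 (ENSDARG00000019815), for fibronectin of provisional matrix, had 2.06, 2.82 and 0.31 TPM uninjured and 16.4, 29.2, 37.1 and 99.6 TPM at 7 dpi, and was called in every fit (adjusted p = 0.000529). It stayed far under the 177 to 946 TPM of the other sorts. The other FN1 ID, ENSDARG00000006526, shown for comparison after its values were seen, had 49.3, 41.03 and 54.4 TPM, then 91.9, 153, 73.1 and 11.2 TPM (0.29 ± 0.62, adjusted p = 0.910). In pools 5 to 7 it lay above all uninjured libraries and in pool 9 below them, while the called ID was highest in pool 9. The collagen gene COL5A1 had 34.7, 49.1 and 53.5 TPM, then 180, 228, 118 and 263 TPM (2.05 ± 0.40, adjusted p = 0.0168). Its call ended without uninjured pool 2 (adjusted p = 0.0887) and without pool 6 (0.0541). LOXL2, for a lysyl oxidase that crosslinks collagen, went from 0.09, 0.37 and 1.91 TPM to 9.36, 36.6, 9.21 and 50.6 TPM (3.71 ± 0.59, adjusted p = 0.00555) and was called in every fit. THBS1, for the matricellular protein thrombospondin, went from 13.4, 9.73 and 5.82 TPM to 45.6, 56.9, 19.4 and 139 TPM (2.37 ± 0.52, adjusted p = 0.0399). The crosslinking transglutaminase TGM2 (ENSDARG00000074094) went from 0.19, 2.62 and 1.5 TPM to 5.68, 34.6, 7.34 and 55.2 TPM (3.05 ± 0.64, adjusted p = 0.0270). The THBS1 call ended in 6 fits (up to 0.138 without uninjured pool 4) and that of TGM2 in 4 (up to 0.135 without uninjured pool 2).

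Of the basement membrane and adhesion genes, 4 rose: NID2, LAMB2, ITGA6 and ITGA4. NID2, for the basement membrane linker nidogen, had 8.06, 7.06 and 9.09 TPM uninjured and 24.2, 108, 86.5 and 46.6 TPM at 7 dpi (2.69 ± 0.43, adjusted p = 0.00555), and was called in every fit. Its relative NID1 (ENSDARG00000068710) had 54.7, 61.9 and 60.6 TPM, then 42.7, 27.2, 29.2 and 29.1 TPM, and did not pass (-0.88 ± 0.35, adjusted p = 0.318). The level of NID1 was thus the higher one in every uninjured library, and that of NID2 in pools 6, 7 and 9. LAMB2, for a laminin beta chain, had at most 1.49 TPM uninjured and 6.49, 5.34, 3.29 and 20.3 TPM at 7 dpi (2.57 ± 0.52, adjusted p = 0.0220). The LAMB2 call ended without uninjured pool 2 (adjusted p = 0.0892) and without uninjured pool 4 (0.0767). ITGA6, for an integrin chain that binds laminin, went from 0.48, 0.38 and 0.20 TPM to 14.6, 5.41, 10.7 and 5.32 TPM (2.78 ± 0.51, adjusted p = 0.0105) and was called in every fit. ITGA4, for a fibronectin-binding integrin chain of leukocytes and other cells, had at most 4.88 TPM uninjured and 6.41 to 16.9 TPM at 7 dpi (1.89 ± 0.42, adjusted p = 0.0425). It had 37.7 to 77.7 TPM in double-negative libraries, and its call ended in 5 fits, with adjusted p up to 0.168 without uninjured pool 2. ITGA6 by contrast had a mean of 8.99 TPM in the injured endothelial sort and 2.78 TPM in double-negative libraries.

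Secreted proteins that act on matrix, clotting or protein folding followed. CLU, for the extracellular chaperone clusterin, had 1.32, 0.31 and 1.34 TPM uninjured and 24.3, 24.4, 12.7 and 23.0 TPM at 7 dpi (3.48 ± 0.39, adjusted p = 0.000132), and was called in every fit. The gene aebp1b, for a collagen-binding secreted protein, went from 7.90, 3.28 and 0.24 TPM to 27.7, 47.9, 23.6 and 38.9 TPM (3.24 ± 0.53, adjusted p = 0.00583), again in every fit. The lowest injured library was above the highest uninjured one for both genes, as in 2.89% of all tested IDs. Groups did not overlap in 131 of the 132 called IDs. PLAT, for tissue plasminogen activator, had at most 0.16 TPM uninjured and 1.78, 8.69, 10.3 and 4.1 TPM at 7 dpi (2.53 ± 0.52, adjusted p = 0.0254, ending in 5 fits with up to 0.0756 without pool 6). F13A1 (ENSDARG00000045453), for the coagulation factor XIII subunit that macrophages also make, had 4.86, 0.39 and 0.38 TPM, then 113, 20.4, 12.3 and 73.3 TPM and was called in every fit (adjusted p = 0.00555). Its level in double-negative libraries was 222 to 560 TPM.

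Most of these matrix genes were higher still in citrine-positive, periostin-reporter cells: the citrine-positive mean was 894 TPM for COL5A1, 536 TPM for CLU, 291 TPM for aebp1b and 162 TPM for LOXL2. The 2 POSTN IDs themselves differed. POSTN (ENSDARG00000104267) had at most 0.63 TPM uninjured and 0.28, 18.9, 11.7 and 36.3 TPM at 7 dpi, with a citrine-positive mean of 1059 TPM, and did not pass (adjusted p = 0.0823). POSTN (ENSDARG00000043806) had 128, 173 and 109 TPM, then 66.7, 97.1, 55.3 and 407 TPM (-0.28 ± 0.84, adjusted p = 0.949). Elastin gene elnb had at most 0.05 TPM uninjured and 1.73, 23.2, 3.07 and 301 TPM at 7 dpi (adjusted p = 0.119), and COL1A1 had 51.9, 55.4 and 58.2 TPM, then 122, 154, 107 and 431 TPM (adjusted p = 0.232). For all 4 the highest library was pool 9. The part of periostin-reporter cells in these levels was not tested.

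By list, 1 of 21 fibrillar collagen and fibroblast matrix genes rose, COL5A1, and 8 of the 21 were higher at an unadjusted p under 0.05, against 5.07% of all tested IDs. The list's median log2 fold change was 0.69. Of all tested IDs 0.42% were called higher and 0.273% lower, for reading the counts of calls in this paragraph. Of 29 matricellular and provisional matrix genes FN1 and THBS1 rose (median 0.18), of 36 genes of collagen processing LOXL2 and TGM2 (0.22), of 26 basement membrane genes NID2 and LAMB2 (0.04), and of 35 integrin and adhesion genes ITGA4 and ITGA6 (median 0.00 after rounding). PLAT was the riser among 37 matrix proteases and inhibitors (0.21) and among 28 genes of coagulation and fibrinolysis (-0.03). No member of these 7 lists was called lower. Of 21 Hippo and YAP target genes TEAD3 rose (-0.16), and of 17 EMT transcription factors and cadherins none was called (0.23, with 2 higher at an unadjusted p under 0.05). CCN2, a matricellular YAP target, missed the threshold with 56.1, 55.0 and 14.5 TPM uninjured and 180, 164, 83.9 and 314 TPM at 7 dpi (2.19 ± 0.52, adjusted p = 0.0635).

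Genes of the actin cytoskeleton and the nuclear lamina changed in both directions. NET1, for a guanine nucleotide exchange factor, had 8.96, 10.6 and 5.79 TPM uninjured and 208, 282, 92.0 and 36.2 TPM at 7 dpi, and was called in every fit (3.70 ± 0.68, adjusted p = 0.0101). RND3 (ENSDARG00000076799), for a small GTPase-like protein that loosens actin fibres, fell from 272, 188 and 144 TPM to 85.4, 68.8, 65.6 and 35.07 TPM (-1.66 ± 0.38, adjusted p = 0.0477). The RND3 call ended in 6 fits, with adjusted p up to 0.204 without uninjured pool 2. RND3 was higher in every mCherry-positive library at 7 dpi than in any library of the other sorts. MYLK (ENSDARG00000034801), for myosin light chain kinase, had at most 0.61 TPM uninjured and 8.43, 15.4, 1.71 and 48.6 TPM at 7 dpi (3.18 ± 0.71, adjusted p = 0.0414, ending in 6 fits with up to 0.138 without uninjured pool 2). TEAD3 (ENSDARG00000074321), for a partner of YAP in transcription, was listed at 0 in all uninjured libraries and had 15.4, 13.4, 2.64 and 10.7 TPM at 7 dpi (adjusted p = 0.00364, called in every fit). Another TEAD3 ID was not called (adjusted p = 0.508).

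LMNA, for the nuclear lamins A and C, went from 3.51, 6.10 and 12.52 TPM to 109, 57.8, 53.3 and 20.4 TPM (2.79 ± 0.62, adjusted p = 0.0404). The keratin gene krt18b went from 77.6, 87.7 and 31.1 TPM to 376, 237, 138 and 240 TPM (1.95 ± 0.43, adjusted p = 0.0376). Both calls ended in 5 fits, LMNA with up to 0.169 without uninjured pool 2 and krt18b with up to 0.153 without uninjured pool 4. NAV3, for a protein of microtubule tips, had at most 1.53 TPM uninjured and 4.68 to 19.8 TPM at 7 dpi (2.36 ± 0.49, adjusted p = 0.0268, up to 0.0919 without uninjured pool 3). Opposed to these, TLNRD1, for an actin-bundling protein, fell from 28.2, 35.16 and 18.2 TPM to 3.71, 1.43, 2.64 and 6.22 TPM (-2.71 ± 0.59, adjusted p = 0.0368, up to 0.122 without uninjured pool 3). TRPC1, for a cation channel, fell from 12.6, 12.2 and 10.2 TPM to 1.2, 0.36, 0 and 1.13 TPM (-2.99 ± 0.64, adjusted p = 0.0317, up to 0.0911 without uninjured pool 2). Of 22 mural and smooth muscle genes MYLK rose, against 0.42% of all tested IDs called higher, and the median was 0.58. At an unadjusted p under 0.05, 4 of the 22 were higher and 1 lower, against 5.07% and 6.42% of all tested IDs. The contractile marker TAGLN (ENSDARG00000033466) went against the list median, at 177 to 644 TPM without a call (-0.72 ± 0.38, adjusted p = 0.491).

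Of the genes linked to macrophages, NPC2, MFAP4, apoeb and IRF8 rose in the endothelial sort. NPC2 (ENSDARG00000096979), for a lysosomal cholesterol carrier, had 0.66, 0 and 0 TPM uninjured and 58.8, 26.2, 33.96 and 20.5 TPM at 7 dpi, and was called in every fit (adjusted p = 5.66e-06). Another NPC2 ID was more abundant uninjured and was not called (adjusted p = 0.581). MFAP4 (ENSDARG00000038681), a name that marks macrophages in zebrafish, was listed at 0, 0 and 0.16 TPM, then at 29.6, 26.4, 9.74 and 11.2 TPM (adjusted p = 0.000529). It was the called one of 6 tested IDs with that name. The apolipoprotein gene apoeb went from 2.69, 2.08 and 5.22 TPM to 70.5, 65.4, 41.4 and 29.6 TPM (3.59 ± 0.48, adjusted p = 0.0011), and IRF8, for a transcription factor of macrophage development, from 0, 0.51 and 0 TPM to 21.2, 16.3, 2.64 and 14.3 TPM (3.40 ± 0.65, adjusted p = 0.0134). NPC2, MFAP4 and apoeb were called in every fit, and the IRF8 call ended without uninjured pool 2 (adjusted p = 0.0588). These 4 were the called members among 34 tested macrophage genes, against 0.42% of all tested IDs called higher, and none fell. In double-negative libraries NPC2 had 54.0 to 114 TPM, MFAP4 21.0 to 74.4 TPM and IRF8 13.2 to 34.7 TPM. There apoeb had 10.0 to 27.4 TPM, less than in any injured endothelial library. Citrine-positive libraries had NPC2 at 0, MFAP4 at up to 1.66 TPM, apoeb at 7.80 to 31.8 TPM and IRF8 at 2.86 to 21.3 TPM.

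Over the 34 tested members of the macrophage list the median log2 fold change was 1.16, the highest of the 41 lists. At an unadjusted p under 0.05, 15 of the 34 were higher, against 5.07% of all tested IDs, and 33 of 34 had a higher mean at 7 dpi, against 46.8% of all tested IDs. All 4 injured libraries lay above the uninjured ones in 7 of the 34, against 2.89% of all tested IDs. The summed TPM of the list was 1689, 1131 and 419 uninjured and 3378, 1440, 785 and 2927 at 7 dpi, so the sums of both groups overlapped. It was 5329 to 9651 in double-negative and 235 to 289 in citrine-positive libraries. The leukocyte gene ptprc had 8.62, 5.27 and 3.70 TPM, then 30.6, 13.04, 7.06 and 39.9 TPM, against 119 to 228 TPM in double-negative libraries (adjusted p = 0.166). SPI1 (ENSDARG00000000767), for the myeloid factor PU.1, had 8.84, 9.71 and 5.39 TPM, then 167, 44.7, 19.7 and 19.8 TPM (adjusted p = 0.179), and csf1ra, for the macrophage growth factor receptor, 5.96, 3.16 and 2.07 TPM, then 7.87, 7.35, 11.3 and 46.1 TPM (adjusted p = 0.162). The scavenger receptor gene marco had 88.3, 110 and 23.8 TPM, then 199, 48.8, 57.3 and 157 TPM, with overlap between groups (adjusted p = 0.730), and the actin-bundling leukocyte gene LCP1 4.82, 10.9 and 4.34 TPM, then 27.1, 8.58, 3.87 and 66.4 TPM (0.495). Among injured libraries pools 5 and 9 had the highest sums and the highest ptprc, marco and LCP1. Other members did not share this order. The called genes NPC2 (ENSDARG00000096979) and apoeb were lowest in pool 9, at 20.5 and 29.6 TPM, and csf1ra had 7.87 TPM in pool 5. Of these genes ptprc, SPI1, marco and LCP1 were picked after their values were seen. No member of the list was at 0 in all 7 libraries, and the part of macrophages or of their free RNA in the rises was not tested. In sorted bulk samples more cells of a type and more RNA per cell cannot be told apart.

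Some other rises had their highest level in double-negative cells. The granulin gene grna.1 went from 1.17, 2.42 and 4.5 TPM to 122, 30.4, 11.8 and 11.3 TPM, with 79.8 to 288 TPM in double-negative libraries (3.02 ± 0.67, adjusted p = 0.0420, up to 0.163 without uninjured pool 2). The leukocyte GTPase gene rac2 went from 0, 1.97 and 3.02 TPM to 11.96, 9.14, 16.1 and 34.2 TPM, with 62.0 to 116 TPM there (2.88 ± 0.57, adjusted p = 0.0191, and 0.104 without uninjured pool 2). MATK, for a tyrosine kinase of blood cells, was listed at 0 uninjured and had 8.85, 7.22, 2.1 and 28.6 TPM at 7 dpi, with 27.6 to 57.4 TPM there (adjusted p = 0.00743). These ranges in double-negative libraries were above every uninjured endothelial library. Over all 80 higher IDs, the double-negative mean was above the injured endothelial mean in 47 (58.8%), as in 48.8% of all tested IDs. The injured endothelial sort had the highest mean of the 3 sorts in 31 of the 80 (38.8%), as in 42.4% of all tested IDs. Among those 31 were si:dkey-219e21.2, at 24.1 to 76.5 TPM against 7.27 to 18.5 TPM in double-negative and at most 0.17 TPM in citrine-positive libraries, and SDSL, at 4.94 to 30.4 TPM against at most 3.14 TPM in any library of the other sorts.

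**Figure D3:**
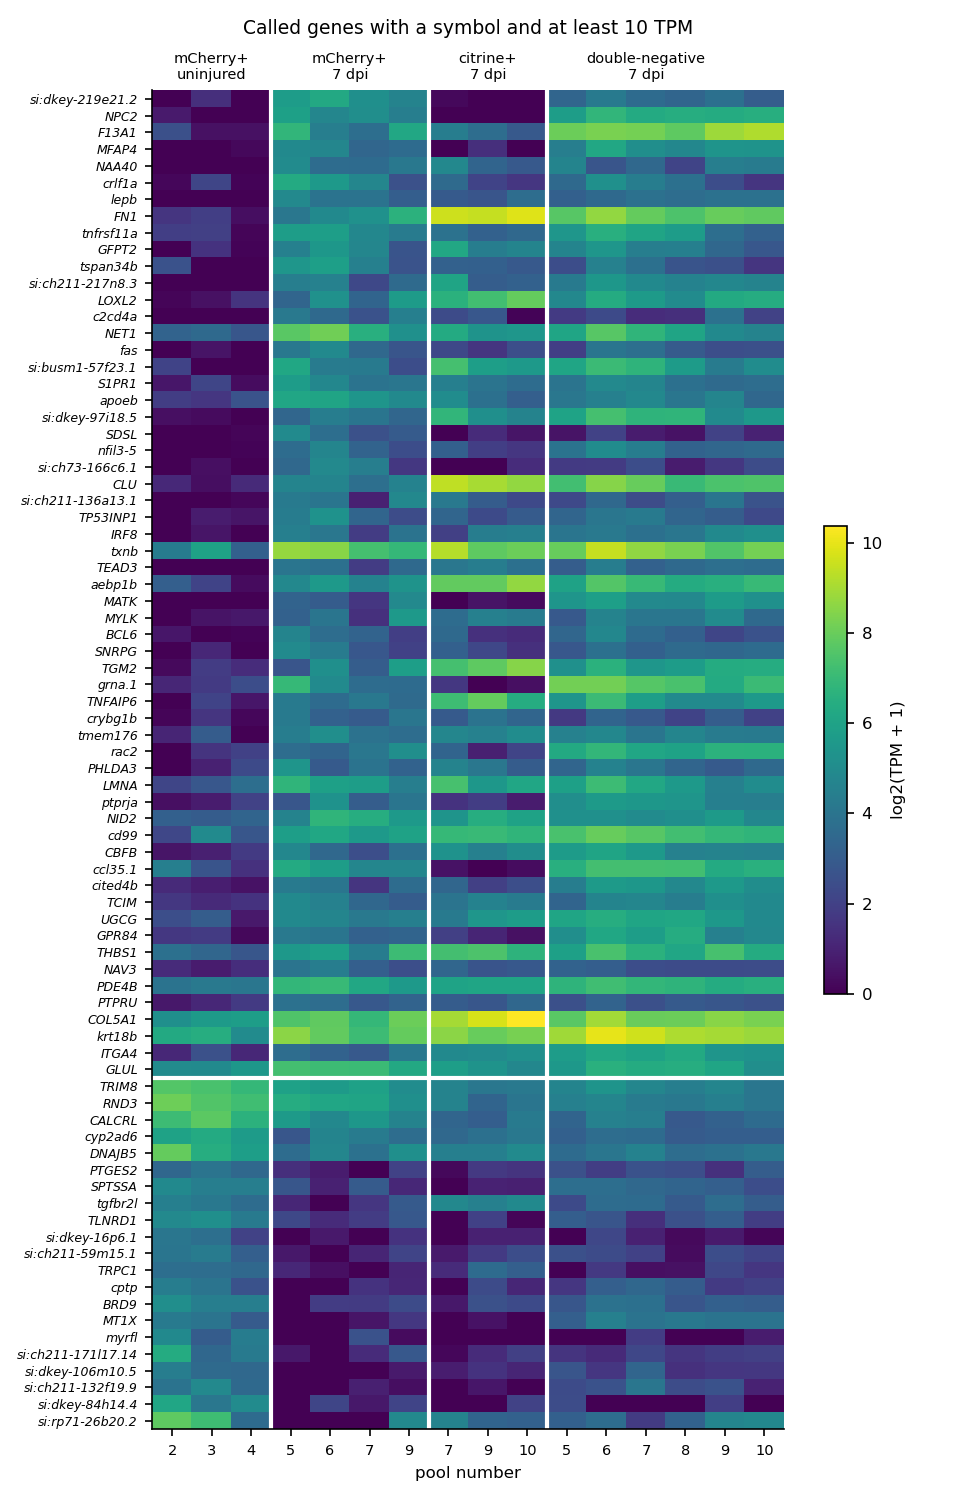
Level, as log2(TPM + 1), of the 80 called genes with a symbol and at least 10 TPM in the higher group, ordered by log2 fold change, in all 16 libraries. Columns are pools within each sort, the white horizontal line parts the 59 higher from the 21 lower genes, and the rises differ in which of the 3 injured sorts is brightest, with CLU, FN1 and COL5A1 brightest in citrine-positive and F13A1 and grna.1 in double-negative cells.

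Outside the macrophage list, the lists of other cell types held 2 calls, THBS1 among thrombocyte genes and MYLK among mural genes. The shares over all tested IDs were 0.42% called higher and 0.273% called lower, and 5.07% higher and 6.42% lower at an unadjusted p under 0.05. Of 14 tested neutrophil genes none was called (median 0.36, 1 higher at an unadjusted p under 0.05). The defining neutrophil gene lyz was listed at 0 in 6 of the 7 libraries and at 0.49 TPM in pool 7. The neutrophil list as a whole was detected, with a summed TPM of 370 to 549 uninjured and 402 to 666 at 7 dpi. Double-negative libraries held more, at 897 to 2059, while periostin-reporter cells held less, at 141 to 232.5. None of 16 lymphocyte genes was called (median 0.09, 2 higher at an unadjusted p under 0.05). None of 16 erythroid genes was called (median -0.13, 1 lower at an unadjusted p under 0.05), and their summed TPM was 24.8 to 216 in the endothelial sort against 2272 to 29304 in double-negative libraries. Of 11 thrombocyte genes THBS1 was called (median 0.06), and their summed TPM was 611 to 1345 in the endothelial sort against 233 to 704 in double-negative libraries. That list includes the endothelial genes vwf and FLI1, which together made up most of its sum in every library of the endothelial sort. None of 25 cardiomyocyte genes was called (median -0.34, 1 lower at an unadjusted p under 0.05). Their sum was 13824, 13042 and 10582 TPM uninjured and 9075, 8255, 7168 and 4688 TPM at 7 dpi, so every injured library held less. In each of these libraries most of the sum was the single gene mb. None of 27 epicardial and fibroblast genes (median 0.15, 3 higher and 1 lower at an unadjusted p under 0.05) and none of 10 neural and Schwann cell genes (0.09, 1 higher and 2 lower) was called.

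Several transcription factors and stress genes rose from very low levels. BCL6, for a transcriptional repressor, had 0.54, 0 and 0.07 TPM uninjured and 24.6, 12.2, 8.95 and 2.85 TPM at 7 dpi (3.17 ± 0.70, adjusted p = 0.0404), with its call ending in 6 fits (up to 0.109 without uninjured pool 3). A gene of the NFIL3 family of leucine zipper factors, nfil3-5, had at most 0.07 TPM uninjured and 11.8, 25.6, 8.77 and 4.43 TPM at 7 dpi (3.50 ± 0.57, adjusted p = 0.00583), and was called in every fit. CBFB, the partner of RUNX factors, went from 0.49, 0.90 and 2.44 TPM to 27.2, 10.49, 4.61 and 13.3 TPM (2.57 ± 0.53, adjusted p = 0.0241, up to 0.105 without uninjured pool 2). All 3 had no overlap between groups, as had 131 of the 132 called IDs and 6.92% of all tested IDs. TP53INP1, a stress gene induced by p53, had at most 0.71 TPM, then 19.5, 37.7, 9.56 and 4.32 TPM (3.40 ± 0.61, adjusted p = 0.00849, and 0.0509 without uninjured pool 2). PHLDA3, for an inhibitor of the kinase AKT, went from 0, 0.91 and 4.01 TPM to 42.0, 6.73, 14.7 and 8.70 TPM (2.82 ± 0.63, adjusted p = 0.0425, up to 0.189 without uninjured pool 2). The thioredoxin gene txnb reached higher levels, with 19.6, 61.7 and 8.09 TPM uninjured and 421, 364, 159 and 119 TPM at 7 dpi (3.36 ± 0.60, adjusted p = 0.00849, and 0.0502 without uninjured pool 4).

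Genes of other functions rose as well. NAA40 (ENSDARG00000090570), for an acetyltransferase of histones, was listed at 0 uninjured and had 31.2, 11.6, 11.3 and 16.7 TPM at 7 dpi (adjusted p = 0.00364, called in every fit). The gene c2cd4a, for a nuclear factor induced by inflammation, was listed at 0 uninjured and had 17.3, 10.7, 5.07 and 21.0 TPM (adjusted p = 0.0132, and 0.0520 without uninjured pool 2). The tetraspanin gene tspan34b went from 5.19, 0 and 0 TPM to 42.7, 56.4, 22.2 and 5.26 TPM (3.74 ± 0.79, adjusted p = 0.0302, up to 0.117 in fits without 1 library). In pool 9 the level of tspan34b was 5.26 TPM, close to the highest uninjured one. The surface protein gene cd99, which acts in the passage of leukocytes through endothelium, went from 3.62, 30.2 and 5.86 TPM to 55.7, 71.8, 47.8 and 62.8 TPM (2.59 ± 0.48, adjusted p = 0.0119, up to 0.0815 without uninjured pool 2).

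Metabolic enzymes were among the rises too. GFPT2, for the entry enzyme of the hexosamine pathway that supplies sugars for glycoproteins, went from 0, 1.85 and 0.08 TPM to 22.1, 44.1, 26.0 and 5.55 TPM (3.83 ± 0.68, adjusted p = 0.00743) and was called in every fit. SDSL, for an enzyme like serine dehydratase, had at most 0.11 TPM uninjured and 30.4, 12.6, 4.94 and 6.81 TPM at 7 dpi (3.52 ± 0.60, adjusted p = 0.00623), in every fit as well. GLUL (ENSDARG00000100003), for glutamine synthetase, went from 31.3, 30.1 and 43.6 TPM to 154, 139, 135 and 75.2 TPM (1.79 ± 0.40, adjusted p = 0.0413, up to 0.133 without uninjured pool 2). UGCG, for glucosylceramide synthase, went from 4.62, 7.30 and 0.65 TPM to 29.2, 25.3, 17.1 and 21.3 TPM (2.48 ± 0.51, adjusted p = 0.0254, up to 0.110 without uninjured pool 4). By list, GFPT2 was the riser among 45 genes of glycolysis and hypoxia (median -0.04), NPC2 among 47 lysosome and sterol transport genes (0.54, 8 higher at an unadjusted p under 0.05) and apoeb among 37 genes of lipid uptake and fatty acid metabolism (0.00 after rounding). Of 30 interferon and antigen presentation genes IRF8 was the riser (0.13). The shares over all tested IDs were 0.42% called higher, and 5.07% higher and 6.42% lower at an unadjusted p under 0.05. None of 31 genes of oxidative stress and iron (median -0.21), 59 of the cell cycle (-0.18) or 13 encoded in the mitochondrion (-0.40) was called, with 1, 4 and 0 higher and 1, 3 and 0 lower at an unadjusted p under 0.05.

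The genes that fell were fewer. TRIM8 (ENSDARG00000090512), for a ubiquitin ligase, fell from 195, 167 and 118 TPM to 60.2, 48.8, 60.4 and 32.0 TPM (-1.66 ± 0.36, adjusted p = 0.0329, up to 0.138 without uninjured pool 2). DNAJB5, for a cochaperone of HSP70, fell from 245, 87.8 and 54.8 TPM to 11.7, 26.5, 13.7 and 34.6 TPM (-2.37 ± 0.47, adjusted p = 0.0198, and 0.113 without uninjured pool 2). The cytochrome P450 gene cyp2ad6 fell from 61.4, 80.6 and 50.2 TPM to 5.92, 24.8, 18.99 and 12.14 TPM (-2.12 ± 0.42, adjusted p = 0.0210, up to 0.0895 without uninjured pool 3). All 3 were lower in every injured than in any uninjured library, as were 4.03% of all tested IDs. Groups did not overlap in 131 of the 132 called IDs. MT1X, for a metal-binding metallothionein, fell from 18.1, 15.0 and 6.83 TPM to 0, 0, 0.50 and 2.21 TPM (-3.17 ± 0.52, adjusted p = 0.00583) and was called in every fit. BRD9, for a subunit of SWI/SNF chromatin remodelling complexes, fell from 33.8, 20.5 and 20.9 TPM to 0, 2.57, 2.5 and 4.16 TPM (-3.16 ± 0.58, adjusted p = 0.0105, and 0.0648 without uninjured pool 2). In double-negative libraries MT1X had 7.81 to 21.7 TPM, more than in any injured endothelial library.

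SPTSSA, for a small subunit of the enzyme that starts sphingolipid synthesis, fell from 29.6, 20.4 and 20.6 TPM to 5.82, 0.94, 6.94 and 1.22 TPM (-2.63 ± 0.54, adjusted p = 0.0254, up to 0.102 without uninjured pool 2). The gene cptp, for a ceramide-1-phosphate carrier, fell from 20.24, 15.13 and 5.16 TPM to 0, 0, 1.83 and 1.17 TPM (-3.03 ± 0.67, adjusted p = 0.0404, up to 0.162 without uninjured pool 2). PTGES2, for a prostaglandin E synthase, fell from 10.0, 14.8 and 10.3 TPM to 1.64, 0.75, 0 and 3.16 TPM (-2.58 ± 0.57, adjusted p = 0.0404, up to 0.122 without uninjured pool 3). The gene myrfl, named for its likeness to a myelin regulatory factor, fell from 29.6, 7.21 and 19.3 TPM to 0, 0, 5.06 and 0.25 TPM (-3.37 ± 0.65, adjusted p = 0.0160, up to 0.0807 without uninjured pool 2). The largest fall on the log2 scale was that of si:rp71-26b20.2, from 221, 140 and 11.3 TPM to 28.7 TPM in pool 9 and 0 in pools 5 to 7, which is the called ID whose groups overlap (adjusted p = 0.0403, up to 0.180 without uninjured pool 2). Of the 52 lower IDs, 50 had a higher mean in uninjured endothelial cells than in any of the 3 injured sorts, as had 36.2% of all tested IDs. A fall by itself sets the uninjured above the injured endothelial mean, so the count was partly fixed by the choice of lower IDs. It also includes the 17 IDs with identical values. Among the 23 lower IDs called in every fit 3 had a symbol, of which MT1X is one, and 17 were the IDs with identical values.

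Genes that define endothelial identity were not called in either direction over all libraries. Of 29 tested endothelial core genes 0 were called, against 0.42% of all tested IDs called higher and 0.273% lower. At an unadjusted p under 0.05, 1 was higher and 1 lower, against 5.07% and 6.42% of all tested IDs. The median log2 fold change of the list was -0.35, against -0.06 over all tested IDs. All 4 injured libraries lay below the uninjured ones in 5 of the 29, kdrl and flt1 among them, and above in 1. Over all tested IDs the shares were 4.03% below and 2.89% above. The summed level of the list was 4884, 4639 and 3083 TPM uninjured and 4245, 3777, 2440 and 2885 TPM at 7 dpi. The sums of both groups overlapped, and the lowest library of each group was one of those in which few IDs held most of the TPM. Of the receptors, kdrl changed by -0.85 ± 0.37 (adjusted p = 0.380), flt1 went from 373, 416 and 324 TPM to 241, 278, 225 and 66.6 TPM (adjusted p = 0.452), and vwf, for von Willebrand factor, from 565, 758 and 349 TPM to 912, 713, 455 and 785 TPM (0.39 ± 0.46, adjusted p = 0.804). The orphan receptor gene GPR182 had 14.7, 14.2 and 17.1 TPM, then 2.22, 3.38, 0.19 and 26.8 TPM, so only pool 9 was above the uninjured libraries (adjusted p = 0.443). With the library set as a term in limma's fit GPR182 was called lower (adjusted p = 0.0466), the 1 core gene called there, where 0.735% of all tested IDs were called lower. Within pools 2 to 8 it was not called (adjusted p = 0.0773).

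Of 17 endocardial genes 0 were called, and 0 had an unadjusted p under 0.05 (median -0.50). SPOCK3, the most abundant of them and named after its values were seen, had 2590, 3127 and 1676 TPM uninjured and 1987, 2157, 918 and 1310 TPM at 7 dpi (-0.66 ± 0.49, adjusted p = 0.646). NOTCH1 (ENSDARG00000052094), a receptor of endocardium and arteries, had 469, 500 and 409 TPM, then 357, 281, 271 and 256 TPM (-0.66 ± 0.33, adjusted p = 0.465), without overlap between groups. The other NOTCH1 ID, ENSDARG00000103554, had 325, 205 and 28.9 TPM, then 135, 20.3, 28.3 and 107 TPM, with overlap (-1.20 ± 0.74, adjusted p = 0.564). The NOTCH1 ligand gene dll4, also picked after its values were seen, had 249, 270 and 177 TPM, then 354, 264, 146 and 76.1 TPM (adjusted p = 0.856). Of 28 flow-responsive and nitric oxide genes 0 were called (median -0.39, 3 lower at an unadjusted p under 0.05). The flow-induced factor klf2a had 194, 205 and 125 TPM, then 149, 145, 130 and 73.2 TPM (adjusted p = 0.677), and heg1, for a junction receptor that takes part in flow sensing, 379, 430 and 267 TPM, then 127, 172, 163 and 103 TPM (-1.34 ± 0.40, adjusted p = 0.154). Of 29 genes of VEGF and angiopoietin signalling 0 were called (median -0.09, 1 higher and 3 lower at an unadjusted p under 0.05), and of 14 lymphatic and venous genes 0 (median 0.21, 1 higher and 1 lower). For reading these counts, 0.42% of all tested IDs were called higher and 0.273% lower. At an unadjusted p under 0.05, 5.07% of all tested IDs were higher and 6.42% lower. The hypoxia factor EPAS1 (ENSDARG00000057671) had 613, 621 and 360 TPM, then 291, 282, 168 and 137 TPM (-1.30 ± 0.40, adjusted p = 0.179). For NOTCH1 (ENSDARG00000052094), heg1 and EPAS1 every injured library was below every uninjured one, as in 4.03% of all tested IDs, and none of the 3 passed the test. That held for 1 of the 17 endocardial, 4 of the 28 flow-responsive and 5 of the 29 VEGF and angiopoietin genes. Every injured library was above in 0, 1 and 0 of them. Of the 14 lymphatic and venous genes 0 lay below and 2 above, against 2.89% above over all tested IDs.

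**Figure D4:**
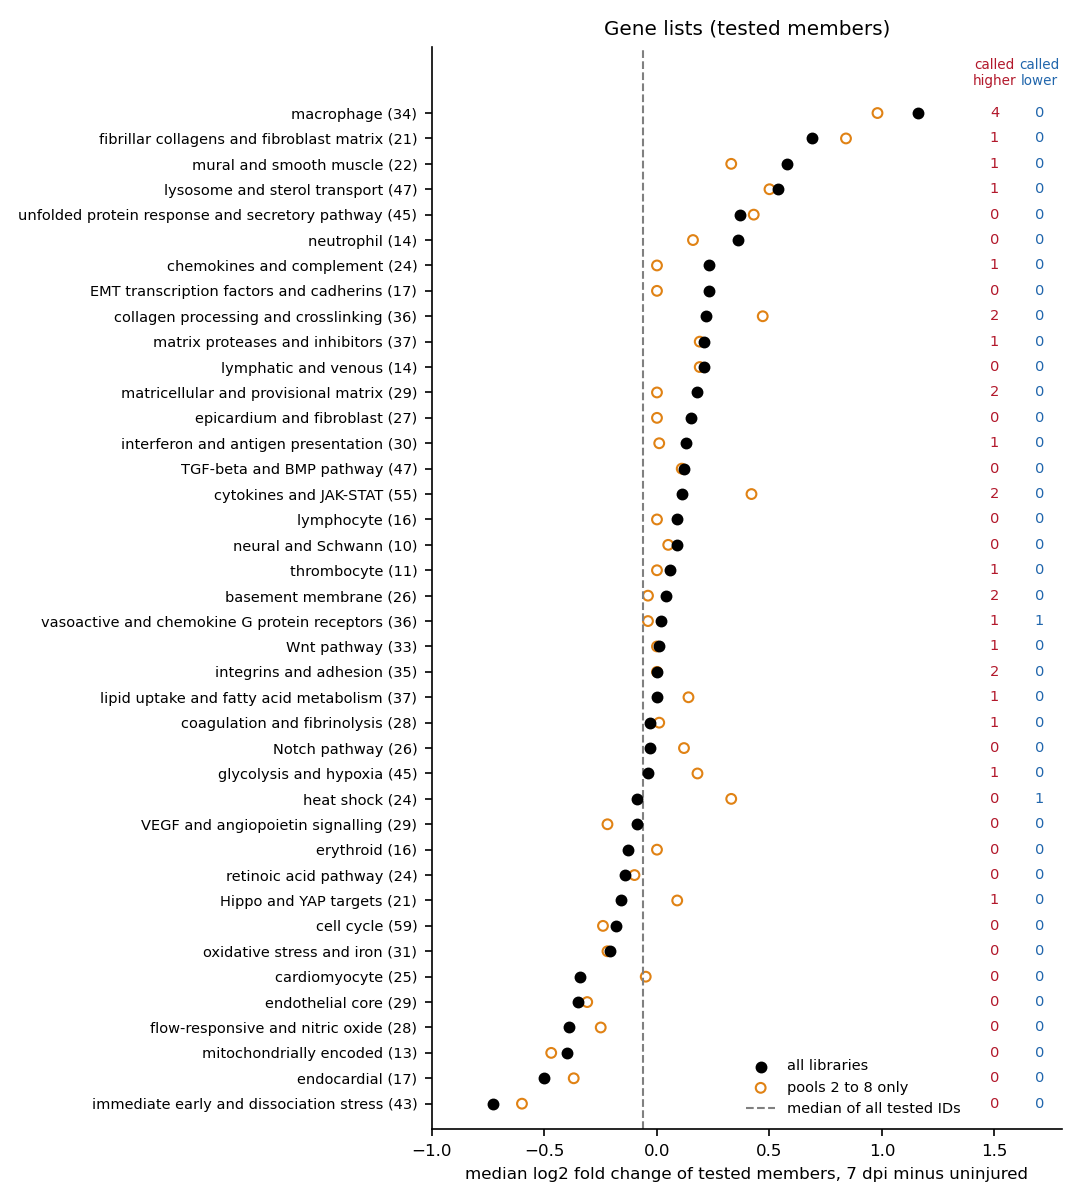
Median log2 fold change, 7 dpi minus uninjured, of the tested members of each of 40 gene lists (number of tested members after the name), over all libraries (black) and within pools 2 to 8 (open orange). The dashed line is the median of all tested IDs, and the numbers at the right count members called higher (red) and lower (blue): the macrophage list has the highest median and the immediate early list the lowest.

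Pool 9 and pools 5 to 7 differed on stress genes. With the library set as a term in the fit, 324 IDs were called (1.7%), 184 of them higher (0.966%) and 140 lower (0.735%), among them all 132, and 35 IDs were called both there and within pools 2 to 8 but not over all libraries without the term, 16 higher and 19 lower. Genes of protein folding in the endoplasmic reticulum were among them, picked after their values were seen. HSPA5, for the chaperone BiP, had 149, 193 and 172 TPM uninjured, 957, 743 and 463 TPM in pools 5 to 7 and 72.9 TPM in pool 9, with adjusted p = 0.622 over all libraries, 0.00926 with the set term and 0.0471 within pools 2 to 8. HERPUD1, another gene of that response, had 16.5, 20.04 and 3.36 TPM, then 263, 252, 67.0 and 20.02 TPM (adjusted p = 0.189, 0.00179 and 0.0399 in the same order). Pools 5 to 7 lay above all uninjured libraries for both genes, and pool 9 did so for neither. Of 45 genes of the unfolded protein response and secretory pathway 0 were called over all libraries (median 0.37). At an unadjusted p under 0.05, 8 were higher, against 5.07% of all tested IDs. With the set term 4 were called higher, against 0.966% of all tested IDs, and within pools 2 to 8 it was 3, against 0.31%.

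In further genes pool 9 was also the lowest injured library. SOX4, EFNA1 and NUAK2 were picked after their values were seen. They are among the IDs called within pools 2 to 8, so their adjusted p there is no separate support. SOX4 (ENSDARG00000004588), for a transcription factor of progenitor and activated cells, had 15.9, 8.41 and 5.66 TPM uninjured and 197, 130, 62.1 and 17.5 TPM at 7 dpi (adjusted p = 0.150, and 0.0228 within pools 2 to 8). EFNA1 (ENSDARG00000018787), for an ephrin ligand, had 29.2, 17.2 and 14.2 TPM, then 242, 217, 80.2 and 13.8 TPM (0.460, and 0.0384). TIMP2 (ENSDARG00000075261), for an inhibitor of matrix metalloproteinases, had 48.7, 27.4 and 10.8 TPM, then 545, 240, 143 and 49.7 TPM (0.201, and 0.0378). NUAK2, for a kinase that acts on actomyosin, had 9.36, 7.14 and 6.04 TPM, then 64.4, 45.2, 34.6 and 2.62 TPM (0.519, and 0.0287). Pool 9 was below all uninjured libraries for EFNA1 and NUAK2 and just above their highest for SOX4 and TIMP2.

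**Figure D5:**
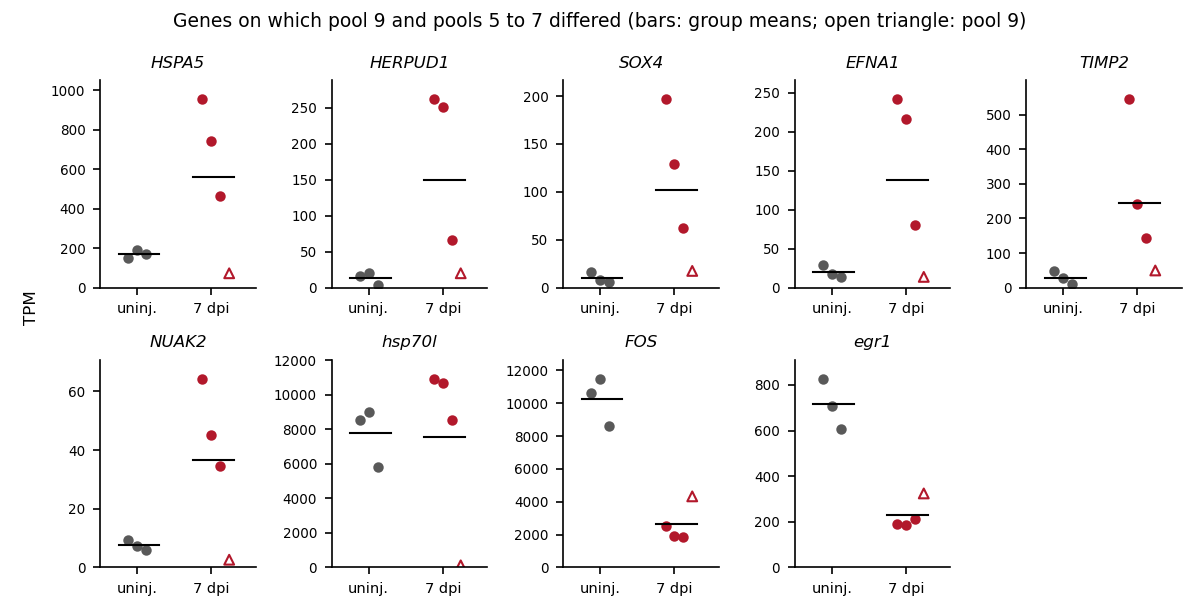
TPM of 9 genes in each mCherry-positive library, on a linear axis from 0, with uninjured pools in grey, pools 5 to 7 at 7 dpi in red and pool 9 as an open triangle. Bars are group means. For the first 6 genes pools 5 to 7 lie above the uninjured libraries and pool 9 does not or hardly does, while for FOS and egr1 all injured libraries lie below.

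Immediate early genes switch on within minutes of a stimulus and also during tissue dissociation, and none passed the test over all libraries. FOS had 10632, 11502 and 8595 TPM uninjured and 2511, 1915, 1881 and 4328 TPM at 7 dpi (-2.02 ± 0.67), with adjusted p = 0.219 over all libraries, 0.00421 with the set term and 0.0331 within pools 2 to 8. For egr1, picked after its values were seen, they were 828, 710 and 608 TPM, then 189, 186, 212 and 324 TPM (adjusted p = 0.256, 0.00555 and 0.0378). BTG2 had 2105, 2059 and 1276 TPM, then 496, 528, 343 and 520 TPM (0.0988, 0.00576 and 0.0476), and JUNB (ENSDARG00000104773) 2140, 2187 and 1618 TPM, then 1108, 538, 502 and 398 TPM (0.107, 0.0386 and 0.145). The groups did not overlap for any of the 4. FOS is not on the list of immediate early and dissociation stress genes, so its levels are left out of the values that follow. Of the 43 tested members of that list 0 were called over all libraries. At an unadjusted p under 0.05, 13 were lower and 1 higher, against 6.42% and 5.07% of all tested IDs. No overlap downward was seen in 13, against 4.03% of all tested IDs. The list's median of -0.73 was the lowest of the 41. Its summed level was 21731, 22303 and 15156 TPM uninjured and 15002, 13129, 9459 and 7433 TPM at 7 dpi. The time from dissection to lysis is not given in the sources used here, and its part in these levels was not tested.

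Heat shock genes were abundant in both groups except in pool 9. The inducible chaperone gene hsp70l had 8557, 9003 and 5844 TPM uninjured, 10941, 10671 and 8562 TPM in pools 5 to 7 and 121 TPM in pool 9 (-1.21 ± 1.56, adjusted p = 0.824, and 0.38 with adjusted p = 0.836 within pools 2 to 8). HSPA2, a relative, had 7083, 9080 and 6315 TPM, then 9374, 8902, 5519 and 71.1 TPM (adjusted p = 0.731). Without pool 9 neither gene was called. HSPA2 is not on the heat shock list, so its levels are left out of the values that follow. Of the 24 tested members of that list DNAJB5 fell and none rose (median -0.09). Over all tested IDs 0.273% were called lower and 0.42% higher. At an unadjusted p under 0.05, 1 member was higher and 1 lower, against 5.07% and 6.42% of all tested IDs. The summed level of the list was 25619, 27920 and 19027 TPM uninjured, 35382, 31277 and 21405 TPM in pools 5 to 7 and 3889 TPM in pool 9.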

How the data were processed

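The authors deposited 1 table of TPM values per gene ID for 16 libraries. The table does not name its unit, which is taken from its columns, each of which sums to 1000000 within rounding. CASAVA 1.8.2, cutadapt, RSEM 1.2.25 and the build Zv9 are named per the submitters' processing notes, with no settings given in the sources used here. Per the labels' protocols, polyA RNA was amplified in 2 rounds (Ovation Single Cell RNA-Seq System), a TruSeq kit is also named, and reads were single and 60 bases long. RSEM shares reads among IDs of near-identical sequence, so levels of close copies are uncertain, and amplification from under 1 ng adds noise to low genes. The table gives no depth.

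Groups were taken from the labels. A library comes from its own sort of several hearts, and whether pools share a clutch or day is not given in the sources used here. Tested were IDs that reached 1 TPM in 3 or more of the 16 libraries, using limma 3.58.1 (R 4.3.3) on log2(TPM + 1), with 1 mean for each group over all 16 libraries and a mean-variance trend. The contrast was 7 dpi minus uninjured, and an adjusted p under 0.05 was called. Fold changes are on that log2 scale, which understates low genes, with SE. Tables and plots used Python 3.11.15, numpy 2.4.6, pandas 2.3.3 and matplotlib 3.10.9. The fit was tested on simulated data.

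Named genes were the reporter genes, the 20 largest rises and falls among called IDs with a symbol, no overlap between groups and 10 TPM, the called and up to 3 further members of 41 gene lists, calls held without any 1 library, and the 10 most abundant. A gene said to be picked after its values were seen stands outside that rule, as do TCF21 and lyz. Members and lists were chosen with earlier results of these data known. Of 1298 list members 104 matched no ID by symbol, 307 matched by a paralogue letter added or dropped, and 1112 distinct IDs were tested. Alternatives were 2 other pseudocounts, 2 other filters, 2 other scalings, the 7 libraries alone, pools 2 to 8, a library-set term, array weights, a fold minimum and leaving out each library. Filtering on the 7 libraries and counting identical IDs once were added after the data were seen. Results of 1 gene and 1 gene list are not reported here.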

Additional observations from a re-analysis of the deposited data

Results flagged for a closer look

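Of 111 genes named, 15 had 1 of the 4 injured libraries set apart from the other 3 by Dixon's ratio of TPM, and in 8 of the 15 it was pool 9 at the top. Chance flags about 1 in 20 groups of normally distributed values, which TPM need not be. A gene at 0 in the other 3 libraries, such as TCF21 or lyz, is always flagged. Some of the 111 genes were picked after their values were seen, so the 15 cannot be read against 1 in 20. Pool 9 was highest for COL1A1 (431.05 TPM), POSTN (ENSDARG00000043806, 407.02 TPM), elnb (301.41 TPM), csf1ra (46.1 TPM), GPR182 (26.81 TPM), si:rp71-26b20.2 (28.73 TPM), si:dkeyp-3b12.11 (129844 TPM) and si:dkeyp-3b12.8 (126711 TPM). Pool 5 was highest for SPI1 (167.38 TPM), clcf1 (67.58 TPM) and NID1 (42.69 TPM). Pool 7 was highest for myrfl (5.06 TPM), TCF21 (0.53 TPM) and lyz (0.49 TPM), and lowest for CLU (12.74 TPM). Of these genes CLU, myrfl and si:rp71-26b20.2 were called.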

How the results depend on the processing

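The 132 calls (80 higher, 52 lower) became 86 with a pseudocount of 5 (32 higher), while a pseudocount of 0.1 gave 127 higher and 33 lower and no filter gave 52 higher. Median-of-ratios scaling gave 134 higher, and rescaling without the IDs over 5% of the TPM gave 226 calls, 176 of them higher. The 7 libraries alone gave 0 calls in either direction, and 4, all higher, with the filter applied to them. The total degrees of freedom in limma's fit were 6.6 and 13.5 there, against 18.9 over all 16 libraries. The library-set term gave 324 (184 higher, 140 lower) and array weights 53 (30 higher, 23 lower). Identical IDs counted once left 31 lower. Without 1 library, calls ranged from 83 (without uninjured pool 2) to 205 (without pool 9), higher calls from 47 to 127 and lower calls from 33 to 100. Of the 66 called genes named, 34 were also called within pools 2 to 8, a fit with fewer libraries. The sign turned in genes that were not called. Within pools 2 to 8 the log2 fold change was 0.06 for HSPA2, 0.384 for hsp70l and 0.066 for dll4, and for TIE1 it was 0.05 with median-of-ratios scaling and 0.076 after rescaling. Without 1 library it ranged from -2.28 to 0.06 for HSPA2, from -1.78 to 0.384 for hsp70l, from -0.67 to 0.066 for dll4, from -0.27 to 0.055 for TIE1, from -0.16 to 1.061 for FN1 (ENSDARG00000006526), from -0.91 to 0.047 for POSTN (ENSDARG00000043806), from -0.69 to 0.113 for lepr and from -0.027 to 1.06 for marco. The cause was not tested. No paired analysis was possible because the compared groups share no pool number. Depth is unknown, so how far counting error limits genes near 1 TPM cannot be given.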
